A study of Mus musculus with 18 samples.

Results

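The comparison described here set RAW264.7 cells carrying an inducible CITED1 construct against parental RAW264.7 cells, with doxycycline given to both. Its members are the rows of the authors' deposited table that name these groups, in either order: 343 entries, each a transcript or an assembled locus, of 7315 entries listed between any of the 6 groups of the series. They belong to 306 named genes of 5455 listed (5.61%). RAW264.7 is a mouse macrophage-like cell line. The parental group was given doxycycline at 100 ng/mL and carries no construct. The construct group, which the labels call p2080, had been transduced with the lentiviral vector pINDUCER20-mCITED1, from which doxycycline induces full-length murine CITED1, and was given doxycycline at the same dose. Each group had 3 samples, so 6 of the 18 samples of the series enter, and neither group was given interferon-gamma. The other 4 groups were parental and construct cells without doxycycline, and construct cells given interferon-gamma at 200 U/mL with or without doxycycline.

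Both sides of the comparison had the inducer, so a direct action of doxycycline common to both lines is matched. Transduction, selection of the line and induced CITED1 remain together on 1 side, and their parts cannot be told apart here. The labels do not say whether the construct cells are a pool or 1 clone, nor how long the treatment lasted, and a line with an empty vector was not analysed here. The table gives 1 fold, 1 FPKM summed over both groups and 1 q-value per entry, but no values per sample, so no SD and no sequencing depth can be attached to a value. No label states that replicates were grown as separate cultures, so the authors' q-values may measure technical spread only. FPKM are counts of fragments corrected for the length of the transcript and the size of the library, and a "rebuilt FPKM" is the level of 1 group worked out from the fold and the sum. For members of at least 1 FPKM, levels rebuilt from different comparisons lay within 0.509% of their median. A gene that is at 0 in either group has an infinite fold, which the table does not list.

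Macrophages take up debris and lipids, sense microbes through surface and endosomal receptors, and secrete cytokines and proteases. Cells of the same lineage, RAW264.7 included, can be driven by the cytokine RANKL to fuse into bone-resorbing osteoclasts, a program led by the transcription factor NFATc1. CITED1 binds the acetyltransferases CBP and p300 and has no DNA-binding domain of its own, so it acts on genes through partner transcription factors such as those of the AP-2 family.

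The members with large falls at high level include a pair of neighbouring genes, Tmem176a and Tmem176b. They encode related multi-pass membrane proteins of macrophages and dendritic cells and lie head to head on mouse chromosome 6. Their RefSeq promoter windows (build GRCm38.p6, 250 bases before to 50 after each start) are shown because the windows overlap: the starts are 346 bases apart on opposite strands, and capitals mark the 155 bases that both windows hold, positions 48841233 to 48841387. Tmem176a is read from chr6:48841233-48841532 on the plus strand and Tmem176b from chr6:48841088-48841387 on the minus strand.
Tmem176a: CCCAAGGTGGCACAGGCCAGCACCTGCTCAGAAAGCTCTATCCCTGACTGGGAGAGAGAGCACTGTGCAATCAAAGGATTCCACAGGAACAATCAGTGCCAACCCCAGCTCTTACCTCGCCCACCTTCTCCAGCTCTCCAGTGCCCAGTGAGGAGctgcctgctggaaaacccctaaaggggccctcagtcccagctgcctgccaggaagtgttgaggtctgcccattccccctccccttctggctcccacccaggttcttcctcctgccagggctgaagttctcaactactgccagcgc
Tmem176b: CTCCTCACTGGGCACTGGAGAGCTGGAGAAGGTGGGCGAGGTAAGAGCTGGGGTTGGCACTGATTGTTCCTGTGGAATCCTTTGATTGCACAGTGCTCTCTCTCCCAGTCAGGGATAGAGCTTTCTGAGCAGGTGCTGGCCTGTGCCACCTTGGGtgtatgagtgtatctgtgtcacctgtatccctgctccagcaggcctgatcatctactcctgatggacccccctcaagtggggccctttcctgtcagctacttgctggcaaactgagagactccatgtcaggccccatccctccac
All listed transcripts of both genes were lower in construct cells. The main Tmem176b transcript went from 51.3 rebuilt FPKM in parental cells to 4.64 in construct cells, 11-fold lower in the authors' deposited table (q = 0.00039). Its other 3 transcripts went from 22.1 to 2.71, from 10.3 to 2.62 and from 9.57 to 0.783 rebuilt FPKM. Tmem176a went from 12.9 to 1.42 rebuilt FPKM in its main transcript, 9.06-fold lower in the authors' deposited table (q = 0.00039), and from 9.59 to 1.31 in its other one. Both genes were already low in construct cells without doxycycline, at 3.28 rebuilt FPKM for Tmem176b against 41.6 in parental cells, and at 1.02 for Tmem176a against 12.6. No methylation or factor binding was measured at this region, so the shared stretch is a description of where the genes start.

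In all, 133 genes were higher in construct cells (2.44% of the listed genes) and 173 were lower (3.17%), all by at least 2-fold with q of 0.05 or less. The lower genes held more of the large differences. Counted by the called entry of highest FPKM, 25 of the higher genes were at least 4-fold apart, 6 at least 8-fold and 2 at least 16-fold. Of the lower genes 59, 20 and 9 reached these folds. The median fold in the authors' deposited table was 2.62 for higher and 2.87 for lower genes. Most members were of modest level: the median was 2.59 rebuilt FPKM in construct cells for higher genes and 3.86 in parental cells for lower genes, and 20 and 46 genes reached 10 FPKM there. With 1 FPKM added to both levels, 49 higher and 87 lower genes were still 2-fold apart. Protein-coding transcripts made up 289 of the entries. The 9 pseudogene entries, such as Actg-ps1, were all lower, and their levels are uncertain because reads can be shared with the parent genes. Of the 343 q-values, 204 (59.5%) sit at the smallest value the table holds, 0.00039, so q ranks few of these genes. Over the 3675 listed genes with a rebuilt level in both groups, the median log2 ratio of construct to parental was -0.03, and 81.1% of them lay within 0.5 of equal levels.

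**Figure D1:**
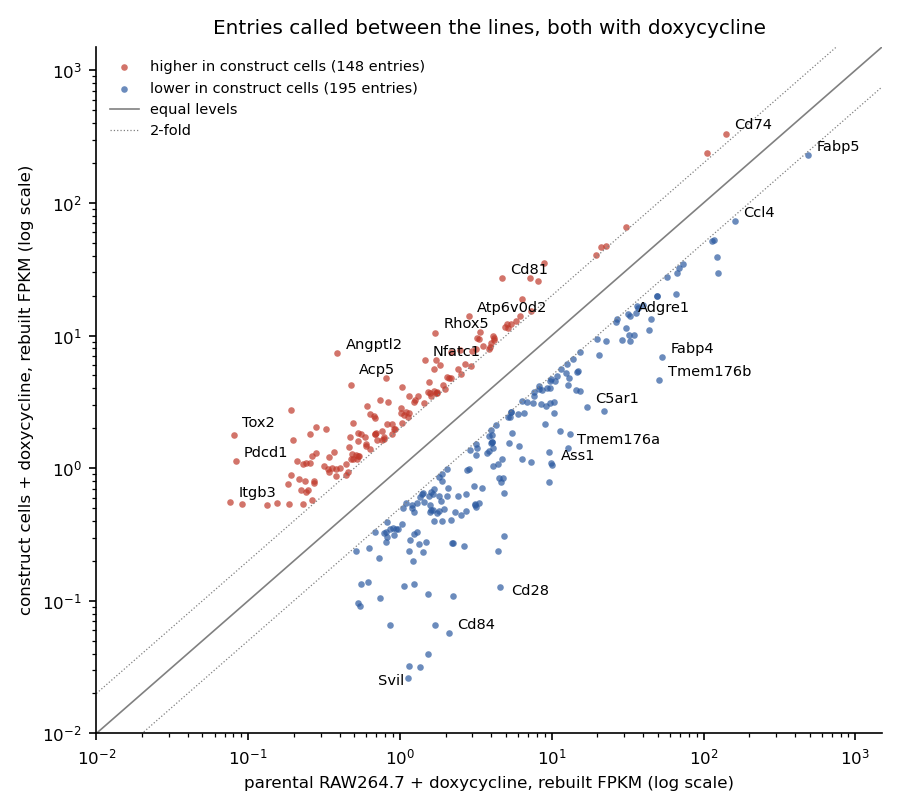
Rebuilt FPKM of the 343 called entries in parental cells with doxycycline (x axis, log scale) and construct cells with doxycycline (y axis, log scale); each point is 1 entry, red higher and blue lower in construct cells, the solid line marks equal levels and the dotted lines 2-fold. No point lies inside the dotted lines, because the table lists only 2-fold differences, and points far from them lie on both sides, such as Tox2 (0.0801 to 1.78) among the higher and Svil (1.36 to 0.0318) and Tmem176b (51.3 to 4.64) among the lower entries.

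The checks of identity came first. Cited1 has no row between the lines, and no parental level can be rebuilt, but in construct cells it stood at 0.703 rebuilt FPKM without doxycycline and 168 with it. The construct cells given doxycycline thus carried far more Cited1 transcript than the same line without it, and the table does not part transcripts of the construct from those of the cell's own gene. Of the macrophage marker genes, 2 were at like levels in both lines: the main transcript of the pan-leukocyte gene Ptprc (CD45) was at 50.9 rebuilt FPKM in parental and 54.9 in construct cells, and Spi1, the gene of the myeloid factor PU.1, at 152 and 151. Adgre1, the gene of the macrophage surface marker F4/80, was lower, at 32.6 and 13.9 rebuilt FPKM. Cd68 and Itgam could be rebuilt only in construct cells, at 661 and 44.0, and Csf1r and Lyz2 have no row, which says nothing of their level. Of 14 T-cell markers 3 were listed, with Cd28 called lower and Lck at 0.888 and 0.458 rebuilt FPKM. Of 12 B-cell markers only Ighm was listed, at 0.397 and 0.892. Of 10 dendritic-cell markers 4 were listed, 1 of them (Cd24a) called lower, and no marker of neutrophils, mast cells, fibroblasts, epithelium or endothelium was listed. In these bulk samples fewer cells of a kind and less RNA per cell cannot be told apart.

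Among the higher genes, osteoclast genes formed the group with most calls. Of 18 listed members of the osteoclast list 6 were higher and 0 lower, beside 2.44% and 3.17% of all listed genes. The list's median log2 ratio was 0.31 beside -0.03 for all. These shares and the median of all genes stand beside every list below. Nfatc1, the gene of the master transcription factor of osteoclasts, was at 1.46 rebuilt FPKM in parental and 6.51 in construct cells, 4.47-fold higher in the authors' deposited table (q = 0.00039). Acp5, the gene of tartrate-resistant acid phosphatase and a classical osteoclast stain, went from 0.473 to 4.26 rebuilt FPKM. Atp6v0d2, a subunit of the proton pump that acidifies the bone surface, went from 2.83 to 14. These 3 genes span transcription factor, enzyme and pump. The fusion genes were higher too: Dcstamp was at 3.15 in parental and 7.87 in construct cells, and Ocstamp at 0.0905 and 0.536. Itgb3, the beta chain of the vitronectin receptor with which osteoclasts seal to bone, went from 0.0758 to 0.559 (q = 0.0152 in the authors' deposited table). Ocstamp and Itgb3 stayed under 1 FPKM in both groups, where few fragments lie behind a value.

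The other listed osteoclast genes did not reach a call. Levels in both groups exist for 15 list members, called ones included. Of these 11 were higher and 4 lower in construct cells, whatever the size of the difference. Only some of the uncalled ones are given here. Ctsk, the gene of the bone collagenase cathepsin K, was at 3.47 rebuilt FPKM in parental and 3.07 in construct cells. Car2, the carbonic anhydrase that supplies protons to the pump, was at 81.4 and 101, and the receptor gene Trem2 at 185 and 200. Calls in this list thus fell on Nfatc1, the acid phosphatase, 1 pump subunit and fusion genes, while Ctsk, Car2 and Trem2 were at close levels in both lines. Nfatc1, Acp5, Atp6v0d2 and Dcstamp were also called higher in construct cells without doxycycline, where the same entries stood at 8.48, 2.43, 10.9 and 9.61 rebuilt FPKM against 1.60, 0.427, 3.22 and 3.45 in parental cells. In construct cells with doxycycline, Acp5 (4.26) and Atp6v0d2 (14) stood above these levels and Nfatc1 (6.51) and Dcstamp (7.87) under them.

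Acp5 is a known target of NFATc1, so its promoter window is shown with the motifs searched. These were TGGAAA (the core bound by NFAT), TGANTCA (AP-1), GCCNNNGGC (AP-2) and TTCNNNGAA (the GAS element), each on both strands, and no match overlapped another. The RefSeq window (GRCm38.p6, chr9:22131816-22132115, minus strand) holds 1 AP-2 match, in capitals, and none of the other motifs.
Acp5: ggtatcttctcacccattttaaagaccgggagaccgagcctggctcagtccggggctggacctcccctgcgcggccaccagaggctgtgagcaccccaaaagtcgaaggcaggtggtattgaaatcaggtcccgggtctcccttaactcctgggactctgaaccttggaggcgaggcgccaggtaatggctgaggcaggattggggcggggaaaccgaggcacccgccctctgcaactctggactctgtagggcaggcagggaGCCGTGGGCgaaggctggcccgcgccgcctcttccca
Of 32851 mouse promoter windows of this length, 16.6% hold the AP-2 motif, 21.4% the NFAT core, 7.81% the AP-1 motif and 8.30% the GAS element. A match is a description of the letters, and a missing match says only that these letters are not in this window. The Tmem176a window has 1 NFAT core and the Tmem176b window none of the 4 motifs.

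The 2 largest rises were outside the osteoclast list. Tox2, a nuclear factor of the HMG-box family, was at 0.0801 rebuilt FPKM in parental and 1.78 in construct cells, 22.2-fold higher in the authors' deposited table. Angptl2, a secreted angiopoietin-like glycoprotein, went from 0.387 to 7.42, 19.2-fold by the rebuilt levels, and so from a barely measured to a moderate level. Bmf, a BH3-only gene that promotes cell death, went from 0.193 to 2.75. Pdcd1, the gene of the inhibitory receptor PD-1, went from 0.0825 to 1.14. The parental levels of Tox2 and Pdcd1 were very low, so the size of their folds rests on little signal. With 1 FPKM added to both levels, the log2 ratio was 1.36 in place of 4.47 for Tox2. For Pdcd1 it was 0.982 in place of 3.79, under 2-fold. Of 19 listed BCL-2 family and apoptosis genes Bmf was the only one called, near the 5.61% of all listed genes called. Bcl2l1, the gene of the survival protein BCL-XL, was at 29.1 and 15.6 rebuilt FPKM, short of the 2-fold limit.

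Called genes of the integrin, adhesion and guidance list were mostly higher. Surface genes outside this list went both ways, and many were lower, such as C5ar1, Cd36 and Cd84 below. Of 22 listed integrin, adhesion and guidance genes 4 were higher and 1 lower, beside 2.44% and 3.17% of all listed genes. Their median log2 ratio was 0.29. The alpha chain gene Itgax (CD11c) went from 1.54 to 3.73 rebuilt FPKM, and the beta chain gene Itgb7 from 4.11 to 9.88. Cd81, a tetraspanin that organises membrane complexes, went from 4.70 to 27.0 in an entry annotated as a retained intron, so this value need not be that of its coding transcript. Cytip, whose protein holds cytohesin in the cytosol and limits integrin adhesion, was the lower one, at 1.54 in parental and 0.0400 in construct cells. Its deposited q was 0.00334 in the authors' deposited table. The construct level of Cytip was very low, so the size of this fall rests on little signal.

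Antigen presentation and co-stimulation genes went both ways. Of 18 listed members 3 were higher and 1 lower, beside 2.44% and 3.17% of all listed genes. Cd74, the invariant chain of MHC class II, had the highest level of all higher genes, at 140 rebuilt FPKM in parental and 333 in construct cells. Cd80, a ligand of CD28 and CTLA-4, went from 0.690 to 1.85. Cd28 itself, best known as a co-stimulatory receptor of T cells, was lower, from 4.59 to 0.127, 36.1-fold in the authors' deposited table (q = 0.00039). The size of this fold rests on little signal in construct cells. The T-cell receptor genes Cd3d, Cd3e and Trac have no row beside Cd28.

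Transcription factors of blood cells were split evenly, with 4 of 28 listed members higher and 4 lower, beside 2.44% and 3.17% of all listed genes. Their median log2 ratio was 0.00. Besides Tox2 and Nfatc1, the X-linked homeobox gene Rhox5 was higher, at 1.71 in parental and 10.5 rebuilt FPKM in construct cells, and so was the zinc finger gene Zfp467, at 0.327 and 1.99. The lower members were Zeb2 (10.4 to 3.18), a repressor needed for macrophage identity, Ets2 (36.6 to 16.6), Id1 (5.95 to 2.55) and Id2 (10.5 to 4.51). Both Id proteins block DNA binding by bHLH factors. Of the immediate early genes Egr2 (0.529 to 1.85) and Klf4 (1.26 to 3.28) were higher and Myc (0.972 to 0.346) lower. Those 3 genes and Tgm2, the transglutaminase gene at 6.08 and 1.46, were also the 4 called members of 6 listed M2-type genes, so that list went both ways. Myc was called through 1 entry, which was under 1 FPKM in both groups and need not be its main transcript.

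Further large rises came from scattered families. Gpr179, an orphan G protein-coupled receptor gene, went from 0.198 to 1.64 rebuilt FPKM. Slc16a12, of the monocarboxylate transporter family, went from 0.280 to 2.06. The epithelial membrane protein gene Emp2 went from 0.256 to 1.82, the apolipoprotein L gene Apol9a from 0.804 to 4.82 and the sorting receptor gene Sort1 from 0.608 to 2.93. Each of these 5 genes was under 1 FPKM in parental cells and above it in construct cells. At higher levels, the water channel gene Aqp8 went from 22.8 to 47.0, the Myc-related gene Bmyc from 21 to 46.6 and the glutathione transferase gene Mgst2 from 19.4 to 40.3. The non-muscle myosin light chain gene Myl6 was listed through 1 entry (8.89 to 35.4, q = 0.0377 in the authors' deposited table), which need not be its main transcript. Palm, a membrane-bound protein linked to cell shape, went from 0.256 to 1.09. Wnt6 went from 0.381 to 0.990, Csf3r, the G-CSF receptor gene, from 1.24 to 3.16, and the p53-linked genes Sesn1 and Trp53inp1 from 1.07 to 2.51 and from 0.821 to 2.16.

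On the lower side, macrophage identity genes were the group with most calls. Of 26 listed members 0 were higher and 7 lower, beside 2.44% and 3.17% of all listed genes. The median log2 ratio of the 21 with both levels was -0.39. Besides the Tmem176 pair and Adgre1, Fabp4, the fatty acid binding protein of adipocytes and macrophages, went from 53.7 to 6.90 rebuilt FPKM, 7.78-fold lower in the authors' deposited table (q = 0.00039). Its relative Fabp5 had the highest level of all lower genes, at 487 in parental and 231 in construct cells. Cd36, a scavenger receptor for oxidised lipoprotein, went from 32.5 to 10.1 in its main transcript, and its other 2 listed transcripts were lower too. Ms4a7, a membrane gene of resident macrophages, went from 1.52 to 0.112. Not called were Ms4a6d, at 53.8 and 29.0, and the cholesterol exporter gene Abca1, at 7.46 and 4.18.

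Lipid handling overlaps that list: Fabp4, Cd36 and Fabp5 are lower members of both, so much of the shared direction comes from the same genes. Of 19 listed lipid genes 5 were lower and 1 higher, beside 3.17% and 2.44% of all listed genes. Their median log2 ratio was -0.62. Fabp3, the heart-type fatty acid binding protein, went from 13 to 4.78 rebuilt FPKM, so 3 Fabp genes of this list were lower together with Cd36. Fabp7, which is in no list and was picked out after its values were seen, was lower as well, 4.91-fold in the authors' deposited table (q = 0.00659). Ptgs2, the inducible cyclooxygenase gene, went from 2.77 to 0.970. Pla1a, a phosphatidylserine-specific phospholipase, was the higher one, at 0.228 and 1.08. Alox5, the 5-lipoxygenase gene, was not called at 14.4 and 8.43.

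Receptors of innate sensing were lower wherever they were called. Of 25 listed pattern recognition and inflammasome genes 0 were higher and 4 lower, beside 2.44% and 3.17% of all listed genes. Their median log2 ratio was -0.14. Tlr8, an endosomal RNA sensor, went from 2.23 to 0.272 rebuilt FPKM. Nlrc4, which assembles the inflammasome that answers to flagellin, went from 1.60 to 0.658. The neighbouring C-type lectin genes Clec4e (Mincle) and Clec4d went from 49.4 to 19.9 and from 115 to 51.8, while their relative Clec7a (Dectin-1) was not called at 8.78 and 14.6. C5ar1, the receptor of complement fragment C5a, went from 17.0 to 2.89, 5.86-fold lower in the authors' deposited table (q = 0.00039). Ccrl2 (1.94 to 0.495), whose protein binds the attractant chemerin, and Il7r (12.4 to 5.21), the interleukin-7 receptor gene, were lower as well. Together with Csf3r, which was higher, they were the 4 called of 26 listed cytokine and chemokine receptor genes, beside 5.61% of all listed genes.

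Cytokine genes were called 5 times among 23 listed, 4 lower and 1 higher, beside 3.17% and 2.44% of all listed genes. Their median log2 ratio was -0.30. Il1rn, which encodes the antagonist of the interleukin-1 receptor, went from 65.7 to 20.5 rebuilt FPKM. Ccl4 went from 161 to 73.4, Tnf from 27.0 to 13.3 and the neutrophil chemokine gene Cxcl2 from 3.85 to 1.74. The lower genes thus included a pro-inflammatory cytokine and an anti-inflammatory antagonist. Ccl5 was the higher one, at 3.91 and 8.18. Tnf lay close to the limit, at 2.03-fold in the authors' deposited table, and so did the stress gene Trib3 (7.65 to 3.77). Ccl2, at 21.8 and 16, was not called.

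Called genes of secreted proteases and growth factors were lower more often than higher. Of 12 listed proteases and inhibitors 0 were higher and 4 lower, beside 2.44% and 3.17% of all listed genes. Their median log2 ratio was -0.78. The secretory leukocyte protease inhibitor gene Slpi went from 4.76 to 0.842 rebuilt FPKM, the aggrecanase gene Adamts1 from 2.53 to 0.442 and the membrane sheddase gene Adam8 from 31.8 to 14.6. Mmp12, macrophage elastase, was listed only through a transcript annotated for nonsense-mediated decay (1.70 to 0.0661, q = 0.0341 in the authors' deposited table), so its coding transcript is not described by this value. Of 19 listed matrix and growth factor genes 5 were lower and 3 higher, beside 3.17% and 2.44% of all listed genes. Their median log2 ratio was -0.22. Igf1, a growth factor made by tissue macrophages, went from 32.7 to 9.17 in its main called transcript. Gas6, the ligand of the receptors that clear dying cells, went from 35 to 10.0. Dkk2, a Wnt antagonist, went from 1.14 to 0.0322, Hbegf from 0.947 to 0.350 and the laminin chain gene Lamb2 from 1.30 to 0.550. Igf1 has another transcript at 34.6 and 8.63 rebuilt FPKM with no row, so a missing row is not the same as equal levels.

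Many of the largest falls were in genes known from other tissues. Of 11 listed genes of the RNA-binding, imprinted and germline list 4 were lower and 1 (Rhox5) higher, with a median log2 ratio of -0.41. Igf2bp1, an mRNA-binding protein of embryonic tissue, went from 1.14 to 0.0261 rebuilt FPKM, 43.4-fold lower in the authors' deposited table (q = 0.000747). Cpeb1, a regulator of poly(A) tail length, went from 2.23 to 0.108. Psma8, a proteasome subunit of the testis, went from 4.40 to 0.239, and Rtl8b, a gene derived from a retrotransposon, from 4.88 to 0.306. All 4 were below 0.5 FPKM in construct cells, where a fold rests on little signal. Svil, an actin-binding protein of podosomes, went from 1.36 to 0.0318, and Mreg, a regulator of vesicle transport, from 1.22 to 0.199. The SLAM family receptor gene Cd84 went from 2.09 to 0.0575 and its relative Slamf9 from 5.30 to 2.42, while Cd24a, a surface glycoprotein gene, went from 4.52 to 0.840. Ambp, the precursor of alpha-1-microglobulin, went from 2.66 to 0.259, and Kctd12b from 1.24 to 0.135. The construct levels of Svil, Mreg, Cd84, Ambp and Kctd12b were likewise below 0.5 FPKM.

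Called genes of the ATF4 and amino acid list and of the transport list were lower more often than higher. Enzyme genes outside these lists, such as Eno3 and Ephx1, were among the higher genes. Ass1, which makes argininosuccinate for the recycling of arginine, went from 10.1 to 1.06 rebuilt FPKM, 9.49-fold lower in the authors' deposited table (q = 0.00039). Of 12 listed ATF4 and amino acid genes Ass1 and Trib3 were called, both lower. Of 31 listed solute carriers and channels 4 were lower and 1 higher, beside 3.17% and 2.44% of all listed genes. Their median log2 ratio was -0.24. The lower ones were the amino acid exchanger Slc7a8 (30.7 to 11.5), the creatine transporter Slc6a8 (8.69 to 3.90), the nucleoside transporter Slc28a2 (3.97 to 1.56) and the sodium-calcium exchanger Slc8a1 (1.20 to 0.529). The medium-chain fatty acid receptor gene Gpr84 went from 49.4 to 20.0. Of 17 listed p53-linked genes Plk2 (44.0 to 11) and Phlda3 (15 to 5.43) were lower and 2 were higher. High-level genes on this side also included the aminopeptidase gene Anpep (118 to 52.8) and Basp1 (123 to 38.8), the gene of a membrane-associated signalling protein.

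**Figure D2:**
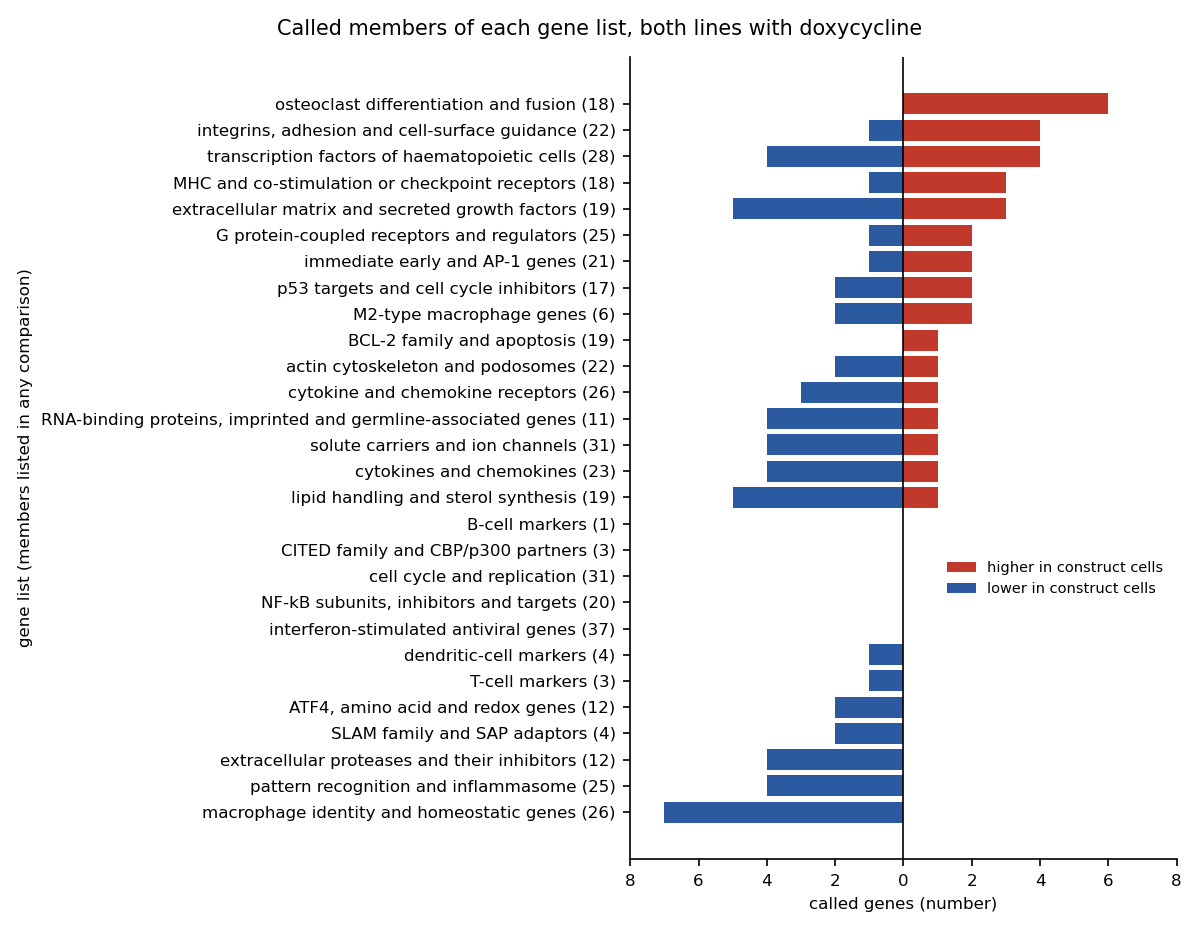
Number of called genes of each gene list, with members listed in any comparison given in brackets after the list's name; bars to the right (red) count genes higher in construct cells and bars to the left (blue) genes lower. The osteoclast list has 6 higher and 0 lower, the macrophage identity list 0 higher and 7 lower, and the cell cycle, NF-kB and antiviral lists have no bar. Over all listed genes 2.44% were higher and 3.17% lower.

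Several lists had no call at all. None of 37 listed interferon-stimulated antiviral genes was called, beside 5.61% of all listed genes, with a median log2 ratio of 0.06. None of 20 listed NF-kB genes (median -0.08) and none of 31 listed cell cycle and replication genes (median -0.12) was called either. Of the CITED and CBP/p300 partner list, Hif1a was at 31.7 and 27.4 rebuilt FPKM. These are counts of the authors' calls at 2-fold, and smaller differences would not appear in them. At the share of all listed genes, lists of this size hold few calls, so a list without a call is close to it. The most uneven uncalled antiviral gene was Ifi27l2a, at 338 in parental and 630 in construct cells. The 30 lists hold 891 distinct genes, of which 474 were listed and 85 called, so 221 of the 306 called genes were in no list.

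Some called genes lay side by side on the chromosome. In the RefSeq gene order 279 called genes could be placed, and 11 pairs of them were direct neighbours. In 10 of these pairs both genes went the same way, 2 pairs higher and 8 lower, and Prkce (higher) and Epas1 (lower) went apart. The lower pairs besides Tmem176b with Tmem176a and Clec4d with Clec4e included Trem3 (9.71 to 4.05 rebuilt FPKM) with Treml4 (1.48 to 0.279), both receptors of the TREM cluster. Thbd, the thrombin receptor thrombomodulin, went from 1.30 to 0.328, and its neighbour Cd93, a related lectin-like gene, from 0.532 to 0.0962. Cd200r4 (29.2 to 9.29) and Cd200r2 (5.15 to 2.44) encode receptors of the CD200R family, and Stab1 (1.80 to 0.620), a scavenger receptor gene, lies beside Nt5dc2 (26.5 to 12.7). Acap3 (6.86 to 3.16) lies beside the ubiquitin-conjugating enzyme gene Ube2j2 (7.69 to 3.48), and the carbonic anhydrase gene Car12 (3.86 to 1.34) beside Aph1b (1.35 to 0.610), a subunit of gamma-secretase. The higher pairs were Frat1 (0.272 to 0.780) with Frat2 (0.192 to 0.889), intronless regulators of GSK3, and Tafa3 (0.154 to 0.545) with the phosphatase gene Ppm1j (4.15 to 9.56). Frat1 with Frat2 and the Cd200r genes are similar in sequence, so reads may be split between them and their values are uncertain. Of all called genes 43.5% were higher, so part of the pairs would go the same way whatever their place. How many neighbour pairs 306 genes drawn from the genome would form, and how many would go the same way, was not tested.

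The same lines were also compared without doxycycline, in samples that are not part of the comparison above, where 245 genes were called (4.49%), 94 higher (1.72%) and 151 lower (2.77%). Most members differed in the same direction there. Of the 133 genes higher with doxycycline 61 were also called higher without it, which is 45.9% of them and 64.9% of the 94. Of the 173 lower genes 99 were called lower in both, 57.2% of them and 65.6% of the 151. No gene was called in opposite directions. Rebuilt levels in both groups without doxycycline exist for 95 of the higher genes, of which 63 were at least 2-fold apart there, 19 between 1.5 and 2-fold and 13 under 1.5-fold, with 5 on the other side of equal levels. For lower genes they exist for 139, of which 99, 27 and 13 fell in these classes, all in the same direction. The other 38 higher and 34 lower genes lack such a level, which leaves them undescribed. A level can be rebuilt only where the entry was called in some comparison with that group. Entries called between the lines without doxycycline are thus always counted, which favours large differences in these classes.

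The size of the difference was somewhat larger with doxycycline for genes chosen by their call there, a choice that itself favours that side. The median fold was 2.87 with and 2.37 without doxycycline over the 95 higher genes, and 2.93 and 2.67 over the 139 lower genes. Among the largest differences some were alike in both and others were not. Cd28 went from 4.06 to 0.115 rebuilt FPKM without doxycycline and from 4.59 to 0.127 with it. Angptl2 went from 0.328 to 7.35 without and from 0.387 to 7.42 with, so its level in each line was close with and without doxycycline. Dkk2 was 35.4-fold lower with doxycycline and 10.1-fold lower without it in the authors' deposited table, and Svil 42.7-fold and 19.1-fold lower. Bmf was 14.3-fold higher with and 4.33-fold higher without doxycycline in the authors' deposited table. Igf2bp1 went the other way, at 43.4-fold lower with and 65.7-fold lower without it in the authors' deposited table. Construct levels without and with doxycycline were 0.0895 and 0.0322 rebuilt FPKM for Dkk2 and 0.0612 and 0.0318 for Svil. For Igf2bp1 they were 0.0155 and 0.0261, so the folds of Dkk2, Svil and Igf2bp1 rest on little signal. Some differences were smaller with doxycycline: Slpi was 12.8-fold lower without it by the rebuilt levels and 5.64-fold lower with it in the authors' deposited table, and its construct level was 0.295 without and 0.842 with doxycycline. Fabp3 stood at 2.90 in construct cells without and 4.78 with doxycycline, against 15.7 and 13 in parental cells. Others were larger: Fabp4 stood at 15.8 in construct cells without and 6.90 with doxycycline, against 53.4 and 53.7 in parental cells, and Ambp at 0.942 and 0.259, against 2.83 and 2.66. In the authors' deposited table Fabp4 was 2.29-fold and Ambp 3.64-fold lower in construct cells with than without doxycycline, a comparison in which 0.403% of listed genes were called. The entries given here for Dkk2, Svil, Bmf, Igf2bp1, Slpi and Fabp3 have no row in that comparison. Whether the line difference itself changed with doxycycline was not tested, as that needs values per sample.

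**Figure D3:**
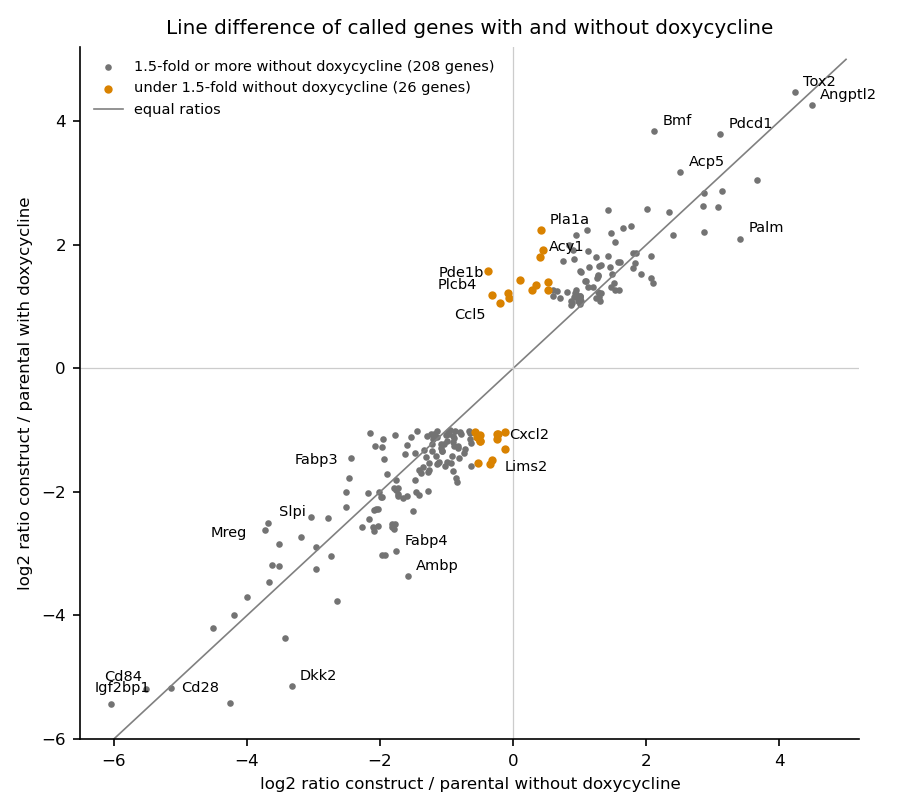
Log2 ratio of construct to parental rebuilt FPKM without doxycycline (x axis) and with doxycycline (y axis) for the 234 called genes with all 4 levels; orange points are the 26 genes under 1.5-fold apart without doxycycline, and the line marks equal ratios. Most points lie along the line, while Pde1b, Acy1, Pla1a, Cxcl2 and Lims2 sit near 0 on the x axis and away from 0 on the y axis.

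The genes whose lines differed with doxycycline but by under 1.5-fold without it numbered 26, 13 higher and 13 lower. The authors' table does not test whether the line difference changed in these genes. Pde1b, a phosphodiesterase switched on by calcium and calmodulin, was at 2.24 rebuilt FPKM in parental cells, 3.20 in parental cells with doxycycline, 1.73 in construct cells and 9.55 in construct cells with doxycycline. The last group stands above the other 3. Acy1, an aminoacylase that frees amino acids from their acetylated forms, was at 2.19, 2.17, 2.91 and 7.55 in the same order. Pla1a was at 0.340, 0.228, 0.455 and 1.08. In the comparison of construct cells with and without doxycycline, which shares the construct samples with doxycycline, Pde1b was 5.51-fold, Acy1 2.6-fold and Pla1a 2.36-fold higher in the authors' deposited table.

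In others of the 13 higher genes the parental level was also lower with doxycycline. Ccl5 was at 7.40 in parental cells and 3.91 in parental cells with doxycycline, and at 6.42 and 8.18 in construct cells. The phospholipase C gene Plcb4 likewise was at 5.13 and 2.67 in parental and at 4.12 and 6.10 in construct cells. In both genes the untreated parental level lies close to the construct levels. Cd80 was at 0.996 and 0.690 in parental and 1.07 and 1.85 in construct cells. The entries given for Ccl5, Plcb4 and Cd80 have no row between parental cells with and without doxycycline, so these parental falls were not called. The remaining named ones were Pcbp4, Serpinb6b, Calhm6, Thra and Hpse, the heparanase gene, which went from 0.489 in parental to 1.17 in construct cells with doxycycline.

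Of the 13 lower genes, Cxcl2 was at 5.14 and 3.85 rebuilt FPKM in parental cells without and with doxycycline, and at 4.34 and 1.74 in construct cells. Lims2, an adaptor of integrin adhesion sites, was at 8.73 and 8.51 in parental and at 7.01 and 3.04 in construct cells. Soat2, an enzyme that esterifies cholesterol, was at 0.873 and 0.861 and at 0.805 and 0.347. In these 3 genes the construct cells with doxycycline were the lowest of the 4 groups. Against construct cells without doxycycline, Cxcl2 was 2.5-fold, Lims2 2.31-fold and Soat2 2.32-fold lower in the authors' deposited table. Rbpj, the DNA-binding factor of Notch signalling, was at 13.3 and 15.5 in parental and at 12.3 and 7.57 in construct cells. Fabp5 was at 513 and 487 in parental and at 363 and 231 in construct cells. Arc, Stab1, Pgm5, Frmd6 and Tbc1d9 complete the protein-coding ones with an assigned symbol.

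Pde1b and Acy1 reached the highest levels among the genes that were higher and are called in construct cells with against without doxycycline, so their promoter windows are shown (RefSeq, GRCm38.p6). Pde1b is at chr15:103502784-103503083 on the plus strand and holds 1 GAS element, in capitals. Acy1 is at chr9:106438187-106438486 on the minus strand and holds 1 AP-2 match, in capitals.
Pde1b: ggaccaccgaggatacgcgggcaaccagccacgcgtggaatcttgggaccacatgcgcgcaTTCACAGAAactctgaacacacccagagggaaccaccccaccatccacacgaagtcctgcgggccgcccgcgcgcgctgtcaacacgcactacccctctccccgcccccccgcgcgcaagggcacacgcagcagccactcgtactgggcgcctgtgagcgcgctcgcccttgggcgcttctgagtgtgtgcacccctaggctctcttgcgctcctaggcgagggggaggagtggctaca
Acy1: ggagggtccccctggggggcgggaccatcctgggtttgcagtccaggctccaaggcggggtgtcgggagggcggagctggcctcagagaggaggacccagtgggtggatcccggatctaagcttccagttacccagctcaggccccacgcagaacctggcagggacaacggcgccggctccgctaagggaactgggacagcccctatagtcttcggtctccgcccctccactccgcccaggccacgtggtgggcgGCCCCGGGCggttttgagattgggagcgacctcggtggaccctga
Neither window holds another of the motifs searched, and the share of all windows with each motif is given above with the Acp5 sequence. Both windows are rich in G and C, at 67.0% for Pde1b and 68.3% for Acy1. No binding was measured, so a match is no sign of a bound site.

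The levels of members in construct cells given interferon-gamma can be set beside these values. The comparison of interferon-gamma with no treatment in construct cells without doxycycline shares no samples with the one described here, and in it 25.7% of all listed genes were called higher and 24.5% lower. Of the 133 higher genes 34 (25.6%) were higher with interferon-gamma and 30 (22.6%) lower, both near these shares. Of the 173 lower genes 42 (24.3%) were higher with interferon-gamma, near the share of all, and 23 (13.3%) lower, under it. Some of the lower genes were already low in untreated construct cells, such as Svil at 0.0612 and Cd84 at 0.0356 rebuilt FPKM. A further fall from such a level is hard to call, and its part in this share was not tested. Members thus moved both ways with the cytokine, as all listed genes did. Nfatc1 stood at 8.48 rebuilt FPKM in construct cells and 2.5 after interferon-gamma, and Acp5 at 2.43 and 0.689. Ocstamp went the other way, at 0.382 and 42.2. Among lower genes Ass1 stood at 1.25 and 207, and Fabp4 at 15.8 and 0.568. Parental cells with interferon-gamma were not analysed here, so the line difference under the cytokine is not described.

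**Figure D4:**
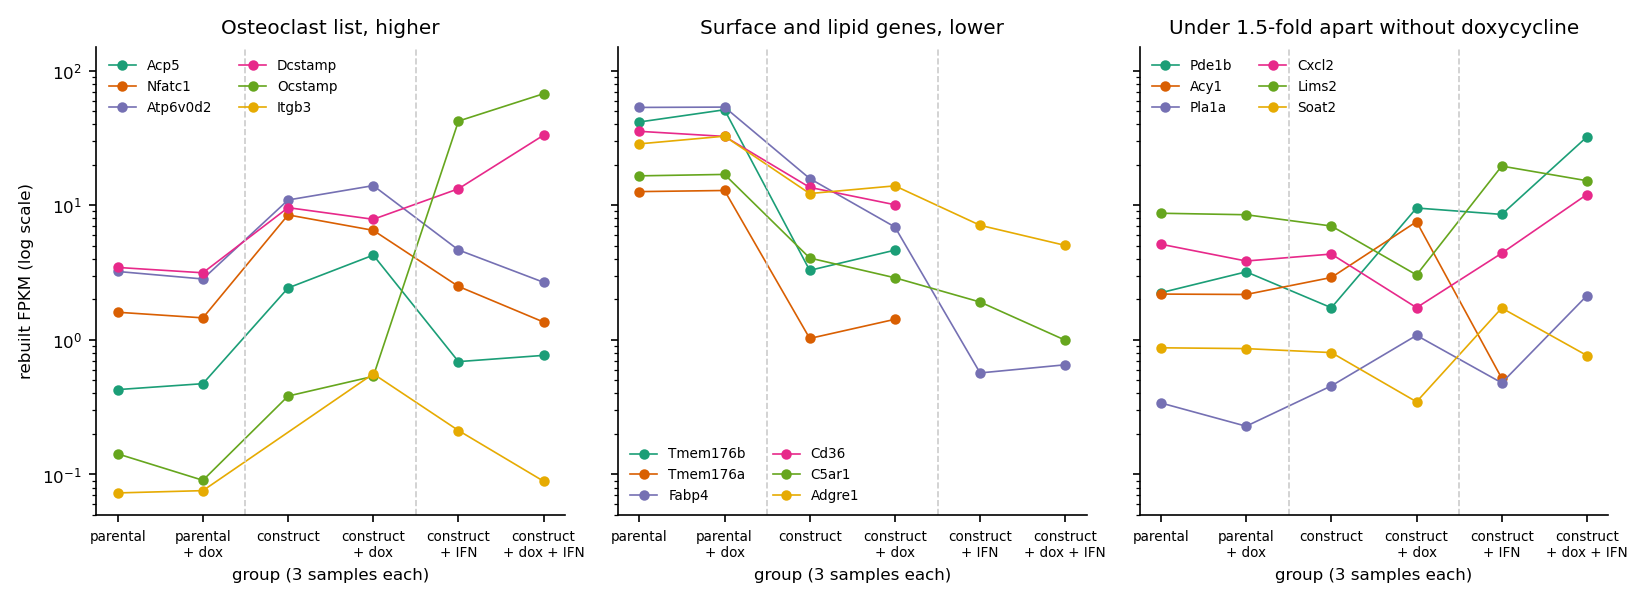
Rebuilt FPKM (y axis, log scale) in the 6 groups (x axis; each point is the authors' value for a group of 3 samples, without error, and lines only join points of a gene) for 6 osteoclast-list genes, 6 lower surface and lipid genes and 6 genes under 1.5-fold apart without doxycycline. In the left panel, apart from Itgb3, both construct groups without interferon-gamma lie above both parental groups, and in the middle panel they lie under them. Itgb3 lacks a level in at least 1 of both lines without doxycycline. On the right, among groups without interferon-gamma, construct cells with doxycycline stand apart, as for Pde1b at 9.55 against 1.73 to 3.20. A missing point means that no level could be rebuilt.

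Members close to the limits of the table show what it leaves out. Crebrf (2.95 to 5.91 rebuilt FPKM), Clec4a2 (6.36 to 3.18) and Adcy2 (8.28 to 4.14) were just inside the 2-fold limit. Tbc1d14, at 3.41 and 6.78, and Naaa, at 1.75 and 3.5, were just outside it. By q the members nearest to 0.05 were Sesn1, Ociad2 and Wnt6, at 0.0462, 0.0473 and 0.0475 in the authors' deposited table. A further 67 entries were at least 2-fold apart by the rebuilt levels without a row, 26 of them with at least 1 FPKM in 1 of both groups, such as Arf4 at 15.3 and 6.98.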

How the data were processed

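Poly(A)-selected, strand-specific libraries were sequenced from 18 samples in 6 groups of 3, per the labels. Tools named by the submitters' processing notes, without roles, are Cuffdiff 2.2.1, STAR 2.5.3a, FastQC 0.11.5, edgeR and featureCounts; for the genome build and for strand in counting, the sources used here give nothing. Deposited was a table of the authors' pairwise comparisons, each row with a fold (linear ratio), a direction, the FPKM of both groups as 1 total and a q-value (an adjusted p-value), per the file headers. Rows naming other groups (77406 of 112230) were not used. The listed folds were at least 2 and q at most 0.05.

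The lower level was rebuilt as total/(1 + fold), which reads the total as a sum, and medians were taken over comparisons. A gene counts as higher or lower where all its entries agree; its printed values are those of the called entry with the highest total. As the table holds no values per sample, all calls are the authors' and no test was added. Biotypes came from GENCODE M21 (329 of 343 entries matched) and promoters from RefSeq (224 of 306 called genes).

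Named were Cited1, the 15 largest rises and falls of at least 1 FPKM, called list members, neighbours called the same way, the 5 highest levels per direction and 3 genes at each limit. Uncalled list members and genes described by their levels without doxycycline were chosen after their values were seen. The members and lists were chosen with earlier results of these data known. Counting and rebuilding were tested on simulated data. Alternatives were a q of 0.01, at least 1 FPKM, a pseudocount of 1 FPKM, at least 4-fold, rescaling, counting entries and leaving out pseudogenes.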

Additional observations from a re-analysis of the deposited data

How the results depend on the processing

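All 133 higher and 173 lower genes rest on the authors' calls. With a pseudocount of 1 FPKM added to both levels and 2-fold kept, 49 genes were higher and 87 lower, with 19 higher and 46 lower also without doxycycline in place of 61 and 99. At 4-fold or more in any called entry the counts were 27 and 60, with 16 and 33 also without doxycycline. Both settings remove genes by construction, the first those of low level. A q of 0.01, a minimum of 1 FPKM, counting entries and leaving out pseudogenes each kept these counts within 1.5 times, rescaling did so for the genes called with doxycycline (it was not run on those called in both), and the 6 osteoclast genes stayed within 1.5 times under every alternative (4 to 6). Of 107 named genes 69 stayed 2-fold apart with the pseudocount and 38 did not, and 105 did after rescaling, with Tnf and Trib3 the exceptions; none turned direction. Without values per sample no replicate could be left out, and what depth limits cannot be given. No paired analysis was possible because the table holds no values per sample.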
